A study of Mus musculus with 21 samples.

Results

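The mitochondrial ribosomal protein genes were taken as the protein-coding mouse genes whose symbol begins Mrpl or Mrps followed by a digit. The deposited table held 78 of them among 55414 gene identifiers, 54749 of which matched the annotation and 21627 of which were protein-coding. With a requirement of 10 or more counts in 3 or more libraries, 77 genes were kept, 48 with a large subunit symbol and 29 with a small subunit symbol. All 77 also passed the filter of the genome-wide test and were tested among 13070 genes, and 76 of them reached 10 counts in all 21 libraries. Mrpl23 was the exception, with 10 counts in 19 libraries. The gene left out, Mrpl53, was listed at 0 in all 21 libraries.

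Mitochondria build a small number of respiratory chain subunits on their own ribosomes. The ribosomal RNA of these particles is encoded in the mitochondrial genome, whereas every protein of the particle is encoded in the nucleus, made in the cytosol and imported. The proteins fall into a set with bacterial counterparts and a set added during mitochondrial evolution, and the nuclear genes must be expressed together for subunits to assemble. Paneth cells are secretory cells at the base of small intestinal crypts that hold zinc-rich granules of antimicrobial peptides.

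RNA was sequenced from Paneth cells sorted from the small intestine of C57BL/6J mice. The specific pathogen free (SPF) mice drank Milli-Q water or water with 200 mM ZnSO4 for 7 weeks (3 libraries each). The mice called antibiotics mice were also SPF-housed, drank the same waters for 7 weeks and were given antibiotics during the final 3 weeks (4 libraries each). Germ-free mice drank Milli-Q water (3 libraries) or zinc water (4 libraries) for the same 7 weeks. The antibiotics are named in the labels only as broad-spectrum. The comparisons ask how zinc water changed these genes in each microbiome context, and how the contexts differed on the same water.

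The libraries held 9888174 to 16896714 counts. The members together received 10389 to 42218 counts a library, and a single kept gene received 449 to 28560 counts over the 21 libraries. Paneth markers took 288783 to 517821 CPM, where CPM is a count scaled to a common library size, and all 8 markers on that list were detected. Goblet markers took 9384 to 15664 and markers of stem and cycling cells 1474 to 5987 CPM of all counts, with 8 of 8 detected on each list, whereas immune markers took 0.910 to 10.9, and stromal markers 0.168 to 3.81 with Col3a1 and Col1a2 at 0. Spink4 was the largest part of the goblet sum in each group, at 6402 to 7528 CPM over the pooled libraries of a group. In sorted bulk samples, fewer cells of a type and less RNA per cell cannot be told apart.

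Letters of known promoter motifs were counted in the promoters of these genes, with no test of enrichment. In the 250 bases before to 50 bases after the start of the canonical transcript, the ETS site CCGGAAG, the sequence read by factors such as GABP, was present on either strand in 23 of 77 members, or 29.9%. It was present in 15.9% of the 11965 promoters of tested protein-coding genes and in 10.3% of all 21614 protein-coding promoters. The core of the NRF1 motif, GCATGCGC, was present in 7 members (9.09%, against 5.01% of tested promoters), and the YY1 motif AAGATGGCG in 4 members (5.19%, against 2.27%). Both factors are known regulators of nuclear genes for mitochondria. The core of the metal response element, which the zinc sensor MTF1 reads, was looked for as TGCACNC and TGCGCNC. The first form was present in 13 members (16.9%, against 13.2% of tested promoters) and the second in 24 members (31.2%, against 23.7%). The E-box CACGTG was present in 5 members (6.49%, against 10.3% of tested promoters) and CCAAT in 26 members (33.8%, against 39.8%). These shares are descriptions of letters in a window, and no binding was measured.

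The 170 bases before the start (GRCm39, read on the gene's strand) are shown for 3 genes with an ETS site that were called in at least 1 comparison. They are also shown for Mrpl24, the only member called lower on zinc after antibiotics, which has none of the ETS, NRF1 and YY1 motifs there. Mrpl13, called higher in that comparison, also has none of these motifs in the longer window. Capitals mark the ETS site.
Mrpl17, chr7:105460373-105460542, minus strand: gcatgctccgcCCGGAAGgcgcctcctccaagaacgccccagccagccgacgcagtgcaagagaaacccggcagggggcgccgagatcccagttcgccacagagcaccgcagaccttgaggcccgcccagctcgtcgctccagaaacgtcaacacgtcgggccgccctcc
Mrps22, chr9:98483721-98483890, minus strand: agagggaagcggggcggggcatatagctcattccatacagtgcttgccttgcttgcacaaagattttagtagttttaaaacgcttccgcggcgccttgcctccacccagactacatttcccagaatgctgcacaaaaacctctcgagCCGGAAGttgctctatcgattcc
Mrps34, chr17:25113902-25114071, plus strand: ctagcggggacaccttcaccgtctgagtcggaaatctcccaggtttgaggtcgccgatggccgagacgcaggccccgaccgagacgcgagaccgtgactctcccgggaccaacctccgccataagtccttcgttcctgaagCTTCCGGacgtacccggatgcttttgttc
Mrpl24, chr3:87826643-87826812, plus strand: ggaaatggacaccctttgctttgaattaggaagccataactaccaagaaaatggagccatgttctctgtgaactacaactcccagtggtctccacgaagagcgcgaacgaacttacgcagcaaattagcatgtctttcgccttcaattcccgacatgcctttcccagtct
The ETS site lay with its first base 159 bases before the start in Mrpl17, 23 in Mrps22 and 29 in Mrps34, in the last on the opposite strand.

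On a length-scaled measure, the members were expressed at an intermediate level and over a wide range. TPM (a transcript's length-scaled share, computed on the canonical transcript length) averaged over 21 libraries had a median of 11.3 over the 77 genes, against 3.84 over 11965 tested protein-coding genes, and 71 members lay above the latter. The genes with a large subunit symbol had a median of 14.1 TPM and those with a small subunit symbol 9.11 TPM. The 3 highest genes were all of the large subunit: Mrpl42 at 52.8 TPM, Mrpl28 at 46.7 TPM and Mrpl20 at 39.1 TPM. The 3 lowest were Mrps25 at 2.77 TPM, Mrps18c at 2.58 TPM and Mrpl23 at 2.05 TPM. Each gene's libraries spread widely on this scale, so neighbours in the order overlapped. The order also depended on the length assigned to a gene, since with the longest annotated transcript Mrpl42 was at 13.99 TPM, with Spearman's rho 0.764 between the 2 orders across the 77 genes.

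**Figure D1:**
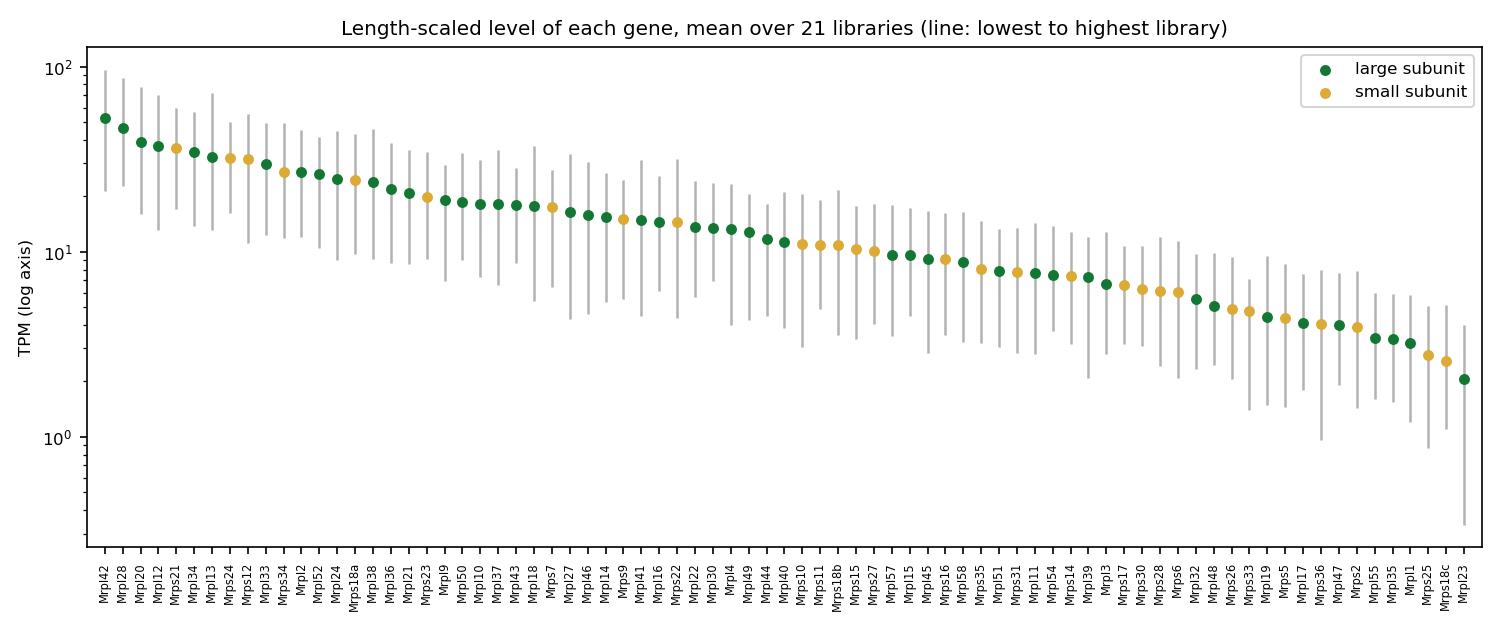
Length-scaled level (TPM, log axis) of each of the 77 genes, ordered by the mean over 21 libraries; points are means, grey lines run from the lowest to the highest library, and colour marks the large or small subunit symbol. Means run from 52.8 TPM for Mrpl42 down to 2.05 TPM for Mrpl23, and neighbouring lines overlap.

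The ratio between genes with large and small subunit symbols moved little. The summed TPM of genes with a large subunit symbol was 2.08 to 2.38 times that of genes with a small subunit symbol in the 21 libraries. The lowest group mean was that of germ-free mice on Milli-Q water (2.10 ± 0.02, SD, n = 3). The sums follow the symbols, so Mrps18a, Mrps30 and Mrps36 were counted with the small subunit, which is not where their products are placed below. Within groups, the members had a median SD of log2 CPM of 0.16 to 0.23, against 0.18 to 0.33 over all genes tested. The genes were not matched for level here, and 71 members lay above the median TPM of tested protein-coding genes.

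The level of the whole set was summed after scaling with TMM factors, which align libraries on the bulk of their genes. The summed CPM of the 77 genes was 1930 ± 148 (SD, n = 3) in SPF mice on Milli-Q and 1831 ± 150 (n = 3) in SPF mice on zinc, with overlapping libraries. It was 1932 ± 106 (n = 4) in antibiotics mice on Milli-Q and 2388 ± 230 (n = 4) on zinc. The 4 zinc libraries lay at 2457, 2153, 2264 and 2677, all above the 4 Milli-Q libraries at 1986, 1858, 1830 and 2054. In germ-free mice the sums were 2334 ± 304 (n = 3) on Milli-Q and 2104 ± 125 (n = 4) on zinc, with overlapping libraries, and the germ-free Milli-Q libraries (2016 to 2622) also overlapped those of antibiotics mice on zinc.

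As a plain share of all counts the order of the groups differed. The alpha-defensin (Defa) genes took 24.1 to 33.5% of counts in SPF mice on Milli-Q and 42.8 to 44.5% in germ-free mice on Milli-Q. The members took 2413 ± 142 CPM of all counts (SD, n = 3) in SPF mice on Milli-Q, 1985 ± 69.9 (n = 3) in SPF mice on zinc and 1505 ± 176 (n = 3) in germ-free mice on Milli-Q. Antibiotics mice were at 2570 ± 328 (n = 4) on Milli-Q and 2830 ± 240 (n = 4) on zinc, and here the libraries overlapped. Without the Defa genes in the denominator the germ-free values were 2678 ± 319 on Milli-Q (n = 3) and 2557 ± 608 on zinc (n = 4), beside 3431 ± 75.9 (n = 3) and 3058 ± 122 (n = 3) in SPF mice on the same waters. On Milli-Q the groups did not overlap, whereas on zinc germ-free library 4, at 3245, lay above the SPF libraries.

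**Figure D2:**
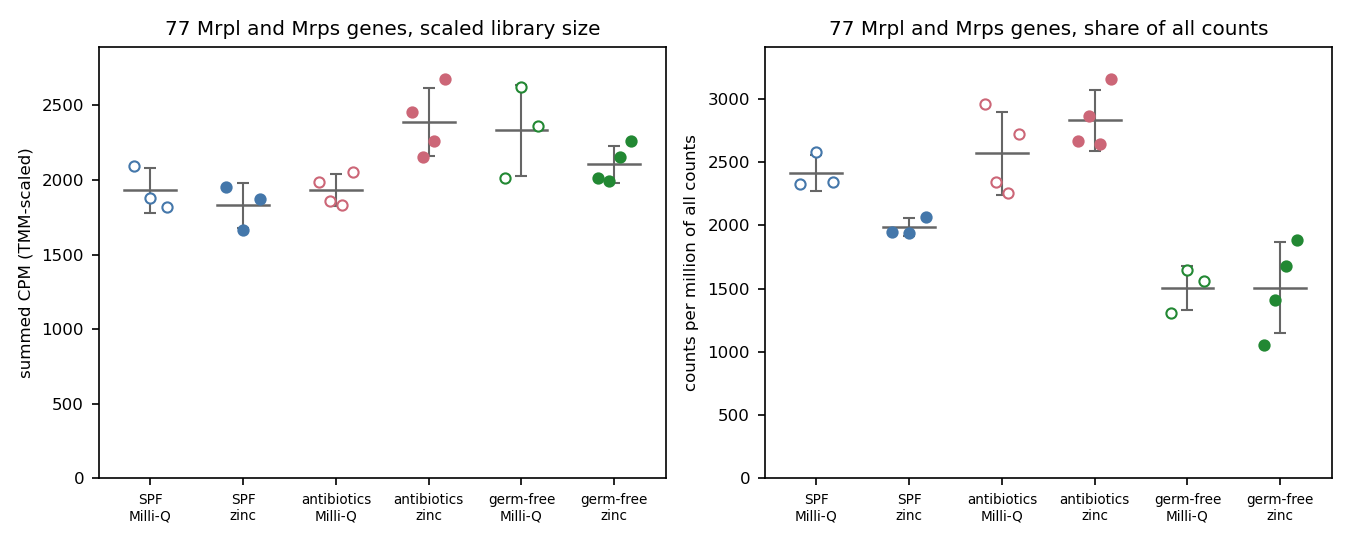
Summed level of the 77 genes in each library by group, as CPM scaled with TMM factors (left) and as CPM of all counts, unscaled by TMM (right); open points are Milli-Q, filled points are zinc, lines and error bars are the mean and SD. On the left the 4 antibiotics zinc libraries (2153 to 2677) lie above the 4 antibiotics Milli-Q libraries (1830 to 2054), whereas on the right these groups overlap and both germ-free groups are the lowest.

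In SPF mice, none of the 77 genes passed for zinc water by edgeR's quasi-likelihood test at a Benjamini-Hochberg adjusted p of 0.05 over all 13070 genes. The median log2 fold change of the members was -0.07, against -0.02 over all genes tested, and 20 members were positive. Few genes of any kind were called in this comparison (0.138% of those tested). At an unadjusted edgeR p under 0.05 there was 1 member, Mrpl16, beside 665 of all 13070 genes, and DESeq2 and limma-voom called 0 members. The highest and lowest uncalled values were Mrps18c at 0.27 ± 0.19 (SE) and Mrpl47 at 0.26 ± 0.16, and Mrpl16 at -0.34 ± 0.16 and Mrps25 at -0.32 ± 0.19. Enterocyte markers took 343 to 698 CPM of all counts in the 3 Milli-Q libraries and 882 to 1500 in the 3 zinc libraries, and their part in these values was not tested.

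After antibiotics, zinc water raised 29 of the 77 genes and lowered 1, Mrpl24. Of the members, 37.7% were thus called higher, against 10.2% of all genes tested, and 1.30% lower, against 11.5%. The log2 fold change was positive for 71 members, with a median of 0.33 against 0.01 over all genes, and the quartiles of the members were 0.16 and 0.45. All 4 zinc libraries exceeded all 4 Milli-Q libraries in 30 members, as in 13.9% of all genes. The higher calls were 21 of 48 genes with a large subunit symbol (median log2 fold change 0.35) and 8 of 29 with a small subunit symbol (median 0.31). Of the genes with a bacterial counterpart 17 of 45 were called higher, and of the others 12 of 32.

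**Figure D3:**
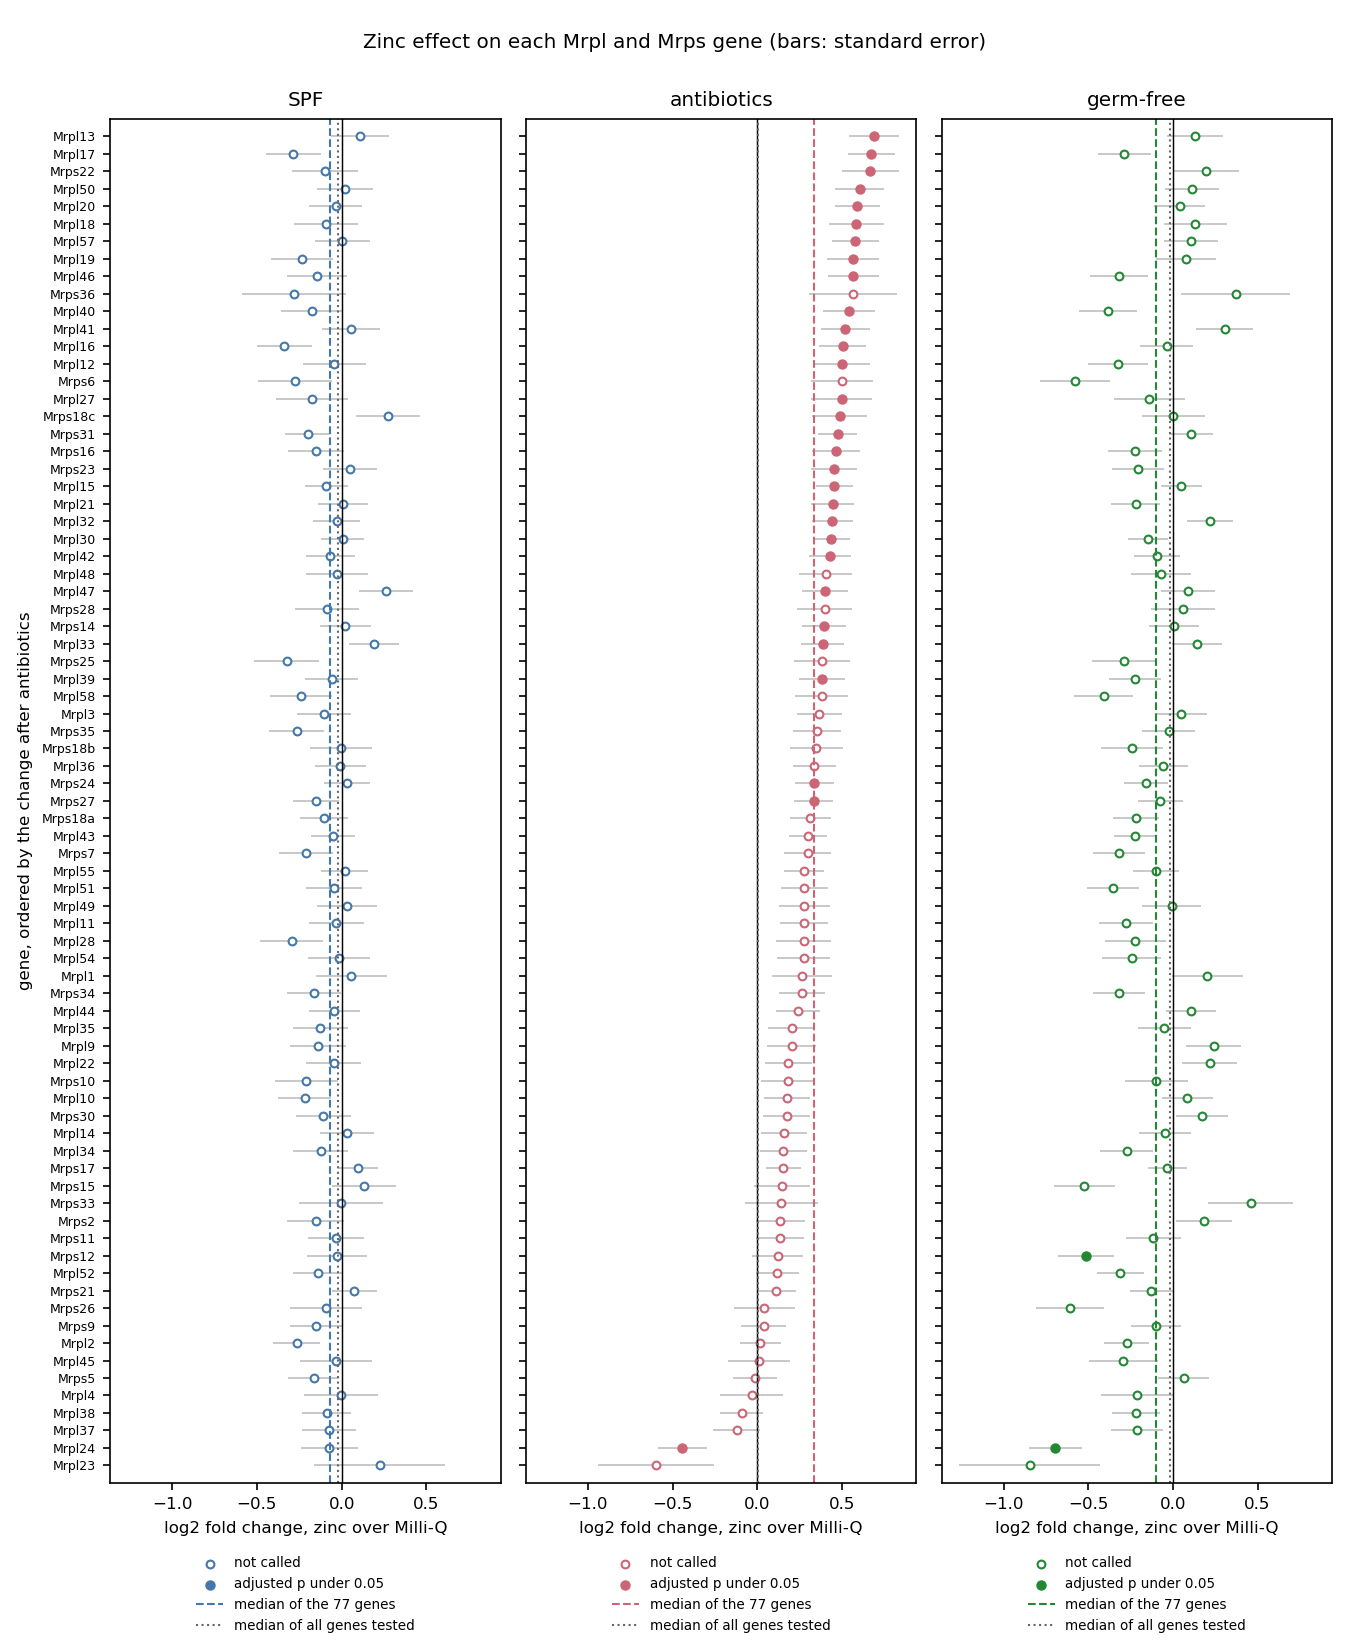
Log2 fold change of zinc over Milli-Q water for each of the 77 genes in SPF, antibiotics and germ-free mice, in 1 order throughout (by the change after antibiotics); bars are standard errors, filled points passed an adjusted p of 0.05, and lines mark the medians of the 77 genes and of all genes tested. In antibiotics mice the points are shifted to the right, with a median of 0.33, whereas in SPF and germ-free mice the medians are -0.07 and -0.10.

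The 8 genes with the greatest absolute change among those called were all higher on zinc. Mrpl13, the counterpart of a bacterial protein of the large subunit core, was at 31.5, 30.5, 38.99 and 42.0 CPM in the 4 Milli-Q libraries and at 52.0, 47.1, 58.4 and 73.1 CPM in the 4 zinc libraries. The groups did not overlap, and zinc library 4 was the highest. Its log2 fold change was 0.69 ± 0.15 (SE) (edgeR quasi-likelihood adjusted p = 0.00356). Mrpl17, which lies beside the exit of the peptide tunnel and whose promoter is shown above, was at 27.7, 25.1, 25.4 and 32.5 CPM on Milli-Q and 52.7, 34.7, 42.8 and 46.5 CPM on zinc. The lowest zinc library stood just above the highest Milli-Q library, and the log2 fold change was 0.67 ± 0.14 (edgeR adjusted p = 0.00301). Mrps22, a small subunit protein with no bacterial counterpart, was at 15.7, 12.7, 14.2 and 20.05 CPM on Milli-Q and 24.5, 22.2, 21.4 and 31.5 CPM on zinc. Again no libraries overlapped, and the change was 0.67 ± 0.17 on the log2 scale (edgeR adjusted p = 0.00813).

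The next genes moved by similar amounts. Mrpl50, a large subunit protein specific to mitochondria, was at 31.5 to 39.9 CPM on Milli-Q and 48.0 to 63.7 CPM on zinc, a log2 fold change of 0.61 ± 0.14 (edgeR adjusted p = 0.00625). Mrpl20, whose bacterial counterpart is needed early in large subunit assembly, was at 22.1 to 33.0 CPM and 33.6 to 48.9 CPM, with a log2 fold change of 0.59 ± 0.13 (edgeR adjusted p = 0.00497). Mrpl57, a mitochondria-specific large subunit protein, was at 23.4 to 29.6 CPM and 30.3 to 43.2 CPM, a log2 fold change of 0.58 ± 0.14 (edgeR adjusted p = 0.00666). In all 3 the zinc and Milli-Q libraries did not overlap, by a margin of under 1 CPM in Mrpl20 and Mrpl57. Mrpl18, the counterpart of a bacterial protein of the central protuberance, and Mrpl19, the counterpart of a protein at the interface of the subunits, had log2 fold changes of 0.59 ± 0.16 and 0.57 ± 0.15 (edgeR adjusted p = 0.0155 and 0.0133). Each of these 2 lost its call with 2 of the 8 libraries left out in turn. Over 13045 genes the change after antibiotics had a correlation of -0.31 with GC content. With GC and length offsets Mrpl50 and Mrpl57 lost their calls.

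Mrpl24 went the other way. Its product, the counterpart of a bacterial protein that starts large subunit assembly and lies at the tunnel exit, is encoded on chromosome 3 (chr3:87826798-87832192, plus strand, GRCm39). The gene was at 75.1, 87.8, 72.6 and 70.2 CPM in the antibiotics Milli-Q libraries and at 54.3, 55.5, 54.0 and 61.0 CPM in the zinc libraries, so that the groups did not overlap. The log2 fold change was -0.44 ± 0.15 (edgeR adjusted p = 0.0333), and this call was lost with any 1 of 6 of the 8 libraries left out (adjusted p up to 0.122). Exons of Mettl25b overlap Mrpl24 on the opposite strand over 2005 bases, with 3622 counts against 19939 for Mrpl24 over the 21 libraries. No source used here states the strand setting of the counting. In all, 57 of the 78 members overlap a gene on the opposite strand, and for some the other side holds more counts. Among them are Mrps22 (39513 against 5387), Mrpl47 (34514 against 4181), Mrps34 (12566 against 7917), Mrps14 (11345 against 6968) and Mrps18c (4289 against 2981).

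The count after antibiotics leaned on scaling and on single libraries. When libraries were scaled by their totals instead of TMM, 2 members were called higher (Mrpl13 and Mrpl17) and 1 lower (Mrpl24), the median of all genes moved to -0.15 and that of the members to 0.16. Across all genes the calls then split into 150 higher and 1295 lower, where they had been 1335 and 1503. Without antibiotics Milli-Q library 2, 3 or zinc library 4, the members called were 13, 19 and 13. Counts on 18S ribosomal RNA (Rn18s-rs5) were 1.63 to 2.03% in the Milli-Q libraries and 1.96 to 6.09% in the zinc libraries, the highest being zinc library 4. With that share as a term in the model, added after the data were seen, 1 member was called (Mrpl17) and the calls over all genes were 478, while the median log2 fold change of the members was 0.26 against 0.01 over all genes. Immune markers took 5.39 to 10.9 CPM of all counts on Milli-Q and 1.98 to 3.69 on zinc (7 of 8 markers detected). Only 3 of the 8 reached 10 counts in 3 or more libraries. Over pooled libraries Cd68 was at 4.37 CPM on Milli-Q and 0.905 on zinc, whereas Ptprc was at 1.31 and 0.941. Goblet markers (11192 to 15597 on zinc) overlapped between the groups, and the part of other cells was not tested.

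**Figure D4:**
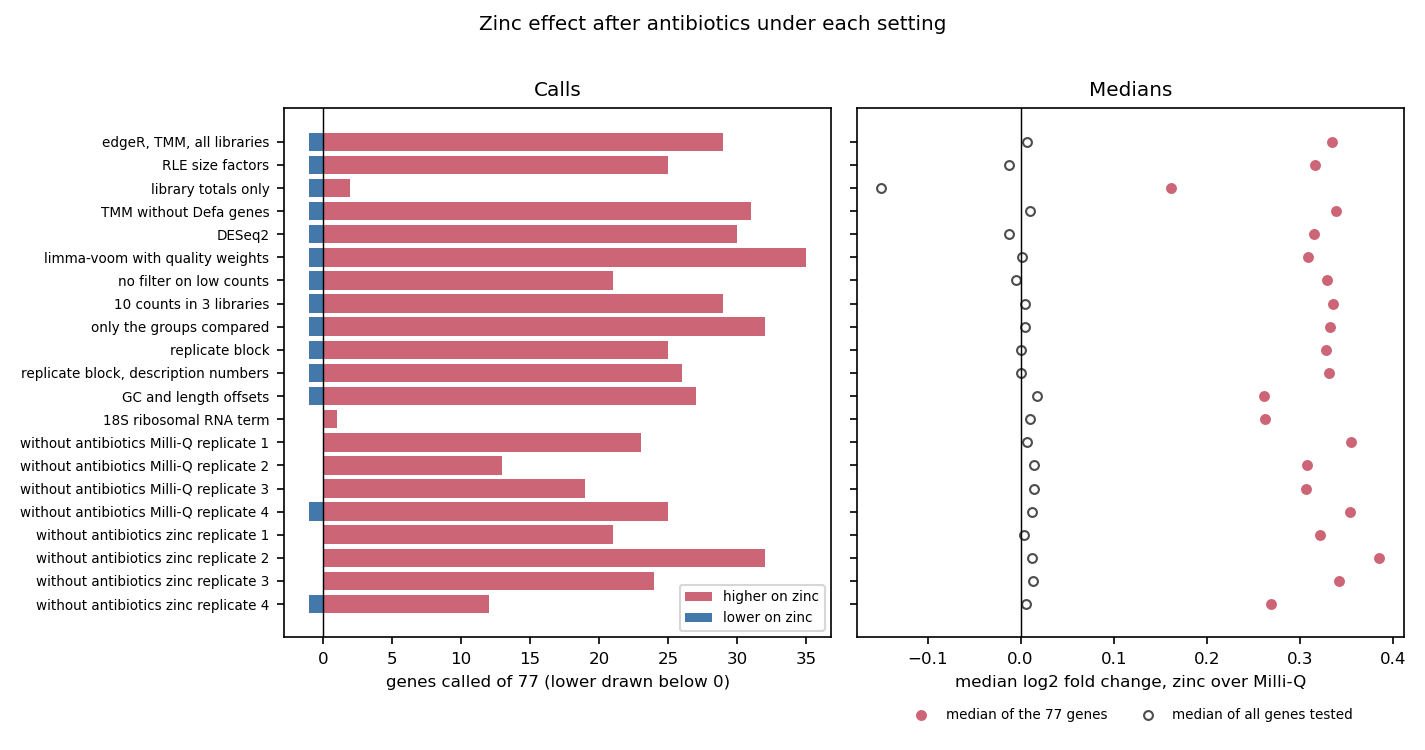
Members called in the zinc comparison after antibiotics under each setting (left, genes of 77, lower calls drawn below 0) and the median log2 fold change of the 77 genes and of all genes tested (right). Calls range from 1 with the ribosomal RNA term to 36 with limma-voom, while the median of the 77 genes lies above that of all genes under every setting drawn. The shares of all genes called under each setting are not drawn.

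In germ-free mice, zinc water raised none of the members and lowered 2, Mrpl24 and Mrps12. All genes tested were called higher in 5.89% and lower in 5.47% of cases. The median log2 fold change of the members was -0.10, against -0.02 over all genes, with 27 members positive. Mrpl24 was at 89.7, 130 and 101 CPM in the 3 Milli-Q libraries and at 57.5, 61.3, 53.0 and 91.7 CPM in the 4 zinc libraries. Zinc library 4 lay inside the Milli-Q range and the other 3 below it. The log2 fold change was -0.69 ± 0.16 (edgeR adjusted p = 0.0129), and the call was lost without Milli-Q library 2 or zinc library 3 (adjusted p up to 0.118). Mrps12, part of the decoding centre of the small subunit, was at 27.3, 48.7 and 38.8 CPM on Milli-Q and at 20.7, 29.4, 24.9 and 31.5 CPM on zinc, with overlapping libraries. Its log2 fold change was -0.51 ± 0.17 (edgeR adjusted p = 0.0482, and 0.0660 with the replicate number as a block). This call was lost with 5 of the 7 libraries left out in turn (edgeR adjusted p up to 0.347). It was also lost under 8 of 12 other settings, over which the log2 fold change ran from -0.52 to -0.095.

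Among the uncalled genes, the lowest value was Mrpl23 at -0.85 ± 0.41 on the log2 scale (SE), and the highest were Mrps33 at 0.46 ± 0.25 and Mrps36 at 0.37 ± 0.32. Mrps36 bears a ribosomal name, but its product is now known as a subunit of the oxoglutarate dehydrogenase complex. The germ-free count was unstable, with 0 members called without Milli-Q library 2 or zinc library 3, 1 without zinc library 1 or 2, 6 without Milli-Q library 1 and 12 without zinc library 4, all of them lower. With library totals the median of all genes was 0.12 and no member was called, and all genes split into 689 higher and 45 lower calls, where they had been 770 and 715. The libraries differed in Rn18s-rs5, at 4.28 to 6.57% on Milli-Q and 3.37 to 10.03% on zinc.

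Mrpl24 was the only member called in more than 1 of the 3 zinc comparisons, which share no library. Averaged over the 3 contexts its log2 fold change was -0.40 ± 0.09 (edgeR adjusted p = 0.00521), and this call was kept with each of the 21 libraries left out and under each of 12 other settings. In SPF mice the value was -0.07 ± 0.17, with 68.8, 55.0 and 63.8 CPM on Milli-Q and 58.1, 56.9 and 63.3 CPM on zinc, which overlapped. In the average, 4 members were higher (10.7% of all genes were) and Mrpl24 was the 1 lower (11.2% of all genes were). The 4 were Mrpl13 at 0.31 ± 0.09, Mrpl41 at 0.29 ± 0.09, Mrpl47 at 0.25 ± 0.09 and Mrpl33 at 0.24 ± 0.08 on the log2 scale. Their edgeR adjusted p values were 0.0218, 0.0280, 0.0437 and 0.0398 (Mrpl33 at 0.0570 with the replicate number as a block). Mrpl47 lost this call with 15 of the 21 libraries left out in turn and Mrpl33 with 9. Under the 12 other settings Mrpl47 lost it in 4, Mrpl33 in 5 and Mrpl13 in 2. The 5 calls became 11 without germ-free zinc library 4, 8 without antibiotics Milli-Q library 4, SPF Milli-Q library 1 or SPF zinc library 2, 3 without germ-free Milli-Q library 1 or 3, germ-free zinc library 1, SPF Milli-Q library 3 or SPF zinc library 3, and 2 without germ-free zinc library 3 or SPF zinc library 1. With library totals all genes split into 312 higher and 974 lower, where they had been 1396 and 1464.

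**Figure D5:**
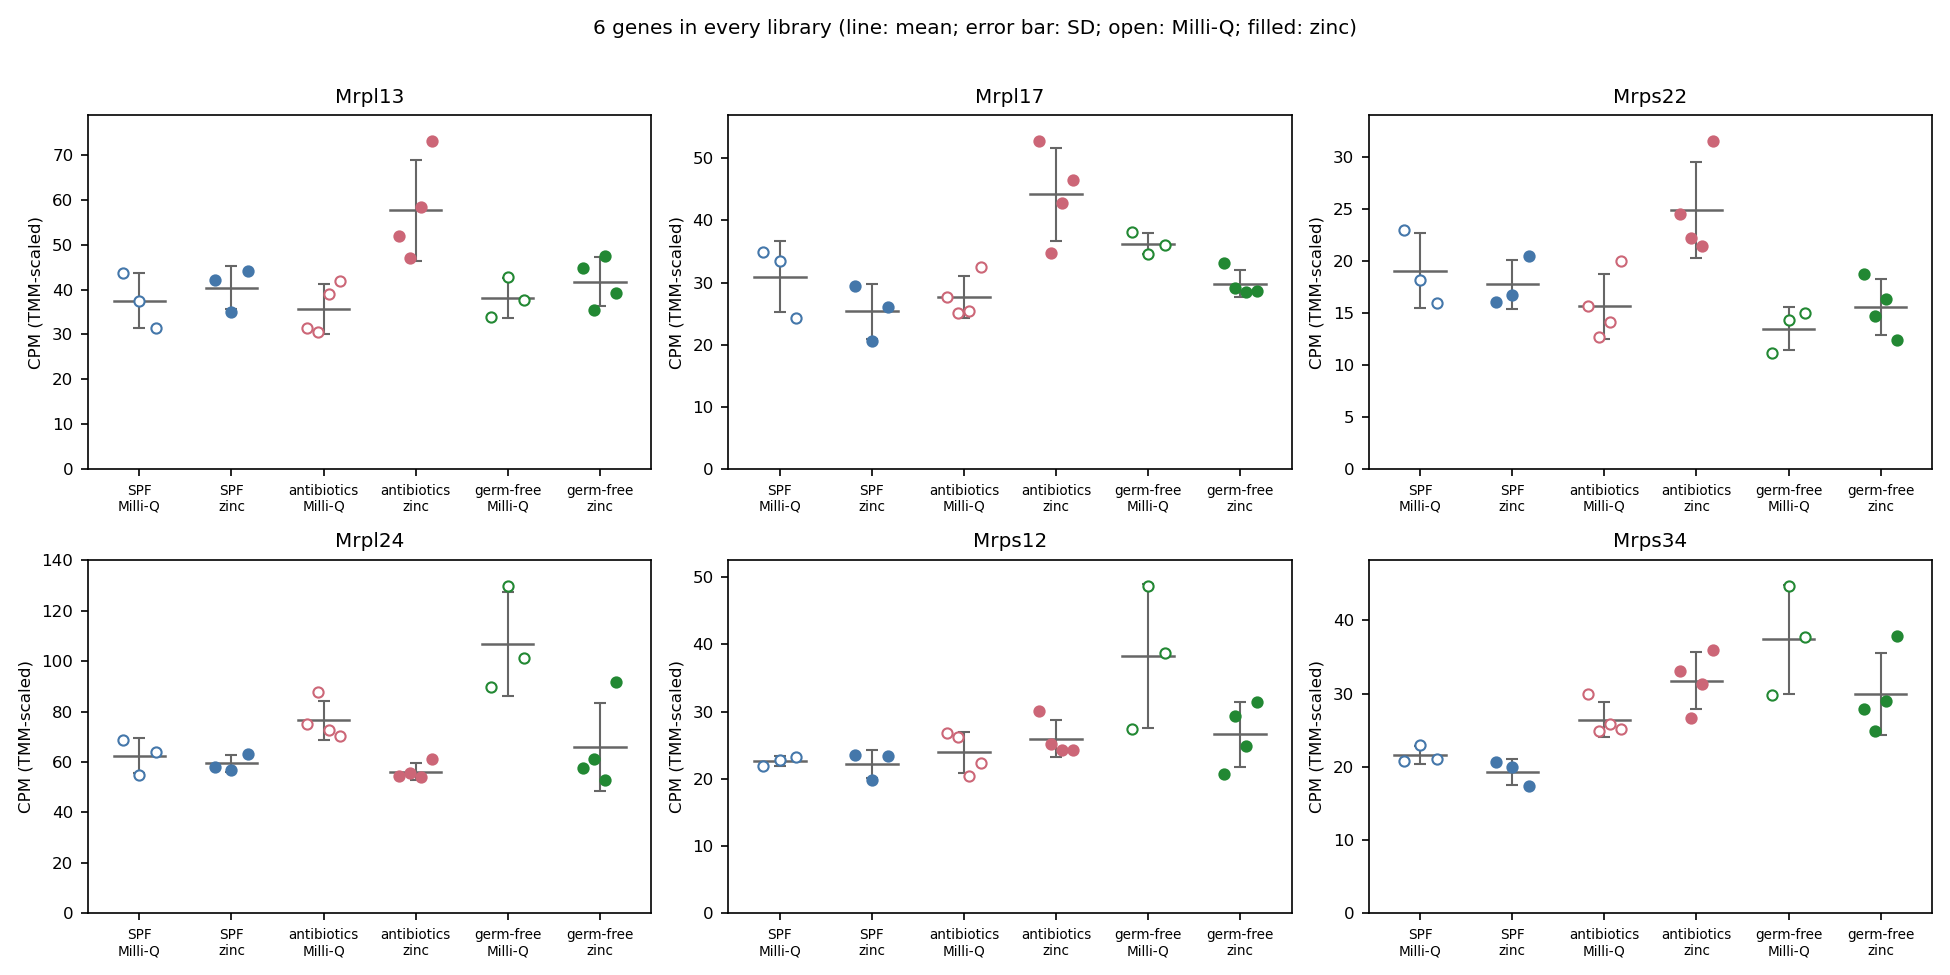
CPM (TMM-scaled) of 6 genes in each library, by group; open points are Milli-Q, filled points zinc, lines and error bars mean and SD. Mrpl13, Mrpl17 and Mrps22 have their highest mean in antibiotics mice on zinc, Mrpl24 and Mrps12 have theirs in germ-free mice on Milli-Q, and Mrps34 is higher in both germ-free groups than in SPF mice.

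Whether the zinc effect differed between contexts was tested as a difference of the 2 changes. By edgeR's quasi-likelihood test no member passed for antibiotics against SPF mice, where 0% of all genes did, for germ-free against SPF mice, where again 0% did, or for germ-free against antibiotics mice, where 0.207% did. The medians of the members were 0.38, -0.05 and -0.43 on the log2 scale, against 0.01, 0.00 and 0.01 over all genes. The unadjusted edgeR p was under 0.05 in 31, 2 and 37 members, and in 2418, 1741 and 2140 of all 13070 genes. The value nearest to the threshold was Mrpl17, whose zinc effect was lower by 0.96 ± 0.21 on the log2 scale in germ-free than in antibiotics mice (edgeR adjusted p = 0.0507). DESeq2 called 3, 0 and 6 members in these tests, and limma-voom 4, 1 and 16. The shares of all genes that these tools called are not given here. The tests share the libraries of the context they have in common. With 1 library left out, germ-free against antibiotics mice gave up to 11 members (without germ-free zinc library 4), 9 without germ-free Milli-Q library 1, and 1 without antibiotics Milli-Q library 1, antibiotics zinc library 2 or germ-free zinc library 1. The other tests gave at most 2, without SPF Milli-Q library 3 and germ-free zinc library 4.

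On Milli-Q water, antibiotics mice did not differ from SPF mice in any member by edgeR's quasi-likelihood test, and 0.199% of all genes were called. The median log2 fold change was -0.01. At an unadjusted edgeR p under 0.05 there were 0 members, beside 1062 of all 13070 genes, and DESeq2 and limma-voom called 0 members. Germ-free mice on Milli-Q were higher than SPF mice in 13 members, or 16.9%, and lower in 0, against 12.7% and 11.6% of all genes. The median of the members was 0.24, against -0.03 over all genes.

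The 3 named first among the 13 were small subunit genes, and Mrpl24 and Mrps12 were also among the 13. Mrps15, the counterpart of a bacterial protein that binds ribosomal RNA early in assembly, was at 16.97, 18.2 and 19.1 CPM in SPF and 26.0, 39.2 and 32.6 CPM in germ-free mice, a log2 fold change of 0.84 ± 0.19 (edgeR adjusted p = 0.00293). Mrps26, a mitochondria-specific protein, was at 20.4, 17.1 and 19.5 CPM and 27.5, 44.0 and 29.8 CPM (0.82 ± 0.21, edgeR adjusted p = 0.00721). Mrps34, also mitochondria-specific and needed for a stable small subunit, was at 20.8, 23.0 and 21.1 CPM and 29.8, 44.7 and 37.7 CPM (0.79 ± 0.16, edgeR adjusted p = 0.00140). In all 3 the groups did not overlap, and germ-free library 2 was the highest. Without that library Mrps26 lost its call (edgeR adjusted p = 0.0774), and with GC and length offsets Mrps34 and Mrps12 lost theirs (edgeR adjusted p = 0.146 and 0.153). Mrpl24 had a log2 fold change of 0.77 ± 0.17 and Mrps12 of 0.75 ± 0.18 (edgeR adjusted p = 0.00224 and 0.00382). The comparison uses the same germ-free Milli-Q libraries as the zinc effect in germ-free mice. The values of Mrpl24 and Mrps12 here thus add no separate evidence on those libraries.

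The direction of this contrast rested on the scaling. When libraries were scaled by their totals instead of TMM, the median of all genes moved to -0.99 and 63 members were lower and 0 higher in germ-free mice, with a median of -0.71. Across all genes the calls then split into 74 higher and 9264 lower, where they had been 1654 and 1515. The count was 21, 7 and 8 without germ-free Milli-Q library 1, germ-free Milli-Q library 2 or SPF Milli-Q library 2. Stem and cycling markers took 4223 to 5987 CPM of all counts in SPF and 1474 to 2102 in germ-free libraries on Milli-Q. Tuft (223 to 323 and 81.4 to 97.2), enteroendocrine (142 to 280 and 39.6 to 54.2) and immune markers (3.93 to 4.86 and 1.18 to 1.77) were also lower without overlap, as was mitochondrial messenger RNA (1.85 to 2.10% and 0.562 to 1.16% of counts). Rn18s-rs5 was higher (1.44 to 2.51% and 4.28 to 6.57%), and with it as a term 8 members were called higher and 1 lower. The share of all genes called with that term is not given here. The part of the markers was not tested.

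On zinc water, antibiotics mice were higher than SPF mice in 25 members, or 32.5%, against 4.76% of all genes, and lower in 0, against 4.21%. The median of the members was 0.40. The comparison uses the same antibiotics zinc libraries as the zinc effect above and adds no separate evidence on them. Enterocyte markers took 882 to 1500 CPM of all counts in SPF and 326 to 578 in antibiotics libraries on zinc, and goblet markers 9384 to 9957 and 11192 to 15597. Every goblet marker listed was higher in antibiotics mice over the pooled libraries. Spink4, the largest part of that sum, was at 6638 and 6819 CPM, whereas Fcgbp was at 151 and 1062. The part of these markers was not tested. Mrpl17 was at 29.4, 20.6 and 26.1 CPM in SPF mice on zinc, below all 4 antibiotics zinc libraries, with a log2 fold change of 0.80 ± 0.16 (edgeR adjusted p = 0.00441). Mrpl16, which lies beside the transfer RNA sites of the large subunit, was at 12.97, 12.8 and 14.1 CPM in SPF and 27.3, 22.4, 20.1 and 21.8 CPM in antibiotics mice on zinc, without overlap (0.78 ± 0.15, edgeR adjusted p = 0.00492). Mrps34 was at 20.6, 19.98 and 17.3 CPM in SPF and 33.1, 26.6, 31.3 and 36.0 CPM in antibiotics mice (0.72 ± 0.15, edgeR adjusted p = 0.00723). The count was 5 without SPF zinc library 2, 7 without SPF zinc library 3, 16 without SPF zinc library 1, 12 without antibiotics zinc library 1 and 8 without antibiotics zinc library 4. With the replicate number as a block it was 14, and with library totals 13, where all genes split into 446 higher and 160 lower in place of 622 and 550.

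Germ-free mice on zinc were higher than SPF mice on zinc in 3 members, against 3.47% of all genes, and lower in 0, against 2.38%. The 3 were Mrps34 at 0.63 ± 0.16, Mrpl16 at 0.54 ± 0.16 and Mrps30 at 0.52 ± 0.16 on the log2 scale (edgeR adjusted p = 0.0188, 0.0449 and 0.0477). Mrps30 is a protein of the large subunit in mammals despite its symbol. Mrps34 was at 27.9, 24.9, 29.0 and 37.8 CPM in germ-free mice on zinc, all above the SPF zinc libraries. With library totals 22 members were lower and 0 higher (32 and 6278 of all genes, in place of 453 and 311). With the replicate number as a block 1 was called, and without SPF zinc library 2 or 3 no member was called, while without germ-free zinc library 1 or 3 there was 1.

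Several mitochondrial ribosomal proteins belong to families whose bacterial members exist in zinc-binding forms, and these 8 were described whatever their values. After antibiotics, zinc raised 4 of the 8, where 37.7% of all 77 members and 10.2% of all genes tested were called higher. The median log2 fold change was 0.37 over the 8, against 0.33 over all 77. Mrpl32, a protein that is cut by a mitochondrial protease before it joins the ribosome, was at 15.03 to 17.6 CPM on Milli-Q and 20.1 to 23.9 CPM on zinc (0.44 ± 0.12, edgeR adjusted p = 0.0129). Mrps14 was at 19.3 to 22.9 and 24.8 to 31.9 CPM (0.40 ± 0.13, edgeR adjusted p = 0.0323), Mrpl33 at 19.4 to 21.8 and 22.1 to 29.9 CPM (0.39 ± 0.13, edgeR adjusted p = 0.0362) and Mrps18c at 8.03 to 10.4 and 11.1 to 15.8 CPM (0.49 ± 0.16, edgeR adjusted p = 0.0347). None of these groups overlapped, and in 13.9% of all genes every zinc library likewise lay above every Milli-Q library. Mrpl33 lost its call with 7 of the 8 libraries left out in turn, Mrps14 with 6 and Mrps18c with 5. Mrpl32 kept its call in each such fit but lost it under 4 of 12 other settings (edgeR adjusted p up to 0.280). With GC and length offsets all 4 genes lost their calls, and over the other settings the log2 fold change of Mrps14 was as low as 0.10. With the replicate number as a block, Mrpl33 and Mrps18c also lost theirs (edgeR adjusted p = 0.0501 and 0.0514).

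The other 4 of these genes did not pass after antibiotics, with Mrpl36 at 0.34 ± 0.13, Mrps18b at 0.35 ± 0.16, Mrps18a at 0.31 ± 0.12 and Mrpl28 at 0.27 ± 0.16 on the log2 scale (SE). The 3 Mrps18 genes are relatives of 1 bacterial gene, and the Mrps18a product sits in the large subunit. In SPF and germ-free mice zinc called 0 of the 8, with medians of -0.01 and -0.03.

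The rest of the mitochondrial translation machinery was taken from lists chosen with results of these data known. Of the 5 mitochondrial ribosomal proteins with other symbols, 2 rose on zinc after antibiotics, Ptcd3 by 0.39 ± 0.12 and Chchd1 by 0.43 ± 0.12 on the log2 scale (edgeR adjusted p = 0.0247 and 0.0124), both of the small subunit. Of the 17 translation factors 3 rose and 0 fell (median 0.21): Taco1, an activator of cytochrome oxidase subunit synthesis, by 0.63 ± 0.15, Gfm1, an elongation factor, by 0.60 ± 0.13 and Slirp, which stabilises mitochondrial messenger RNA, by 0.42 ± 0.14 (edgeR adjusted p = 0.00698, 0.00331 and 0.0333). Of the 30 assembly factors and ribosomal RNA enzymes, Fastkd2 rose by 0.49 ± 0.13 and Mettl17 had a log2 fold change of -0.79 ± 0.19 (edgeR adjusted p = 0.0106 and 0.00706), with a median of 0.08. Of all genes tested, 10.2% were called higher and 11.5% lower in this comparison, so that 1 of 30 each way lies below those shares.

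In germ-free mice zinc called 1 of the 30 assembly genes higher and 2 lower, near the 5.89% and 5.47% of all genes. Tfb1m, which methylates the small subunit ribosomal RNA, was at 0.76 ± 0.25, whereas the GTPases Mtg2 and Gtpbp6 were at -0.66 ± 0.19 and -0.79 ± 0.25 on the log2 scale (edgeR adjusted p = 0.0486, 0.0300 and 0.0430). Of the translation factors, Taco1 was again higher, by 0.59 ± 0.18, and Mtres1 was at -0.88 ± 0.25 (edgeR adjusted p = 0.0420 and 0.0292). In SPF mice zinc called 0 genes of these lists.

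The cytosolic ribosomal protein genes, the most similar group by function, had a smaller count of calls after antibiotics. Of the 81 tested, 6 were called higher and 1 lower, or 7.41% and 1.23%, against 10.2% and 11.5% of all genes, with 77 positive and a median log2 fold change of 0.22. In germ-free against SPF mice on Milli-Q, 26 of the 81 were higher (32.1%, against 12.7% of all genes), with a median of 0.35, beside 13 of the 77 mitochondrial genes with a median of 0.24. On zinc water, antibiotics mice were higher than SPF mice in 19 of the 81 (23.5%, against 4.76% of all genes), beside 25 of the 77. Germ-free mice on zinc were higher than SPF mice in 27 of the 81 (33.3%, against 3.47% of all genes), beside 3 of the 77. The difference between the 2 families was not tested.

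Of the 29 members called higher after antibiotics, 12 were positive for zinc in SPF mice and 15 in germ-free mice, with medians of -0.04 and 0.00 on the log2 scale. Of members with an ETS site 8 of 23 were called higher after antibiotics, and of those without 21 of 54, with medians of 0.33 and 0.32 and no test of the difference. For the metal response core TGCACNC it was 5 of 13 with it and 24 of 64 without, with medians of 0.31 and 0.34, and for TGCGCNC 6 of 24 with it and 23 of 53 without, with medians of 0.28 and 0.38. For 15 members another protein-coding gene starts close by on the opposite strand. One such pair lies within the set, with 30 bases between the starts of Mrpl46 and Mrps11, and was singled out for its position after values were seen. Mrpl46 rose on zinc after antibiotics by 0.57 ± 0.15 (edgeR adjusted p = 0.0120), whereas Mrps11 was at 0.14 ± 0.14 on the log2 scale and did not pass.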

How the data were processed

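RNA-seq counts per gene were used as the authors deposited them, for 21 libraries in 6 groups of 3 or 4. The submitters' processing notes name FastQC 0.12.0, STAR 2.7.0a, DESeq2 and the mm39 build. The counting tool and its strand setting are not given in the sources used here. Identifiers were matched to GENCODE annotation of GRCm39 (54749 of 55414), and 0.0164% of counts fell on the rest. Libraries held 9888174 to 16896714 counts, and a kept member 449 to 28560 counts over all libraries, so that counting error is a larger part of the spread for the lowest genes.

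Genes passing filterByExpr (13070) were scaled with TMM factors and tested with edgeR 4.0.16's quasi-likelihood test (R 4.3.3) over all 6 groups, with Benjamini-Hochberg adjustment and a threshold of 0.05. Adjusted p values below come from this test unless DESeq2 1.42.0 or limma 3.58.1 is named. Where the labels do not state separate animals, p values measure only the spread between these libraries. TPM was computed from the counts. Tables and figures used Python 3.11.15, pandas 2.3.3 and matplotlib 3.10.9. The fit was tested on simulated data.

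The members and lists were chosen with earlier results of these data known. Named genes were at most the first 8 called by absolute change in each zinc comparison (with the 2 highest and 2 lowest uncalled where fewer than 4 were called), members called in more than 1 zinc comparison, the 3 highest and lowest by TPM, the 8 genes of zinc-form families and the 3 leading calls in each direction of each context comparison. Mrpl41, Mrpl46 and Mrps11, and the Mrpl24 and Mrps12 values on Milli-Q, were chosen after values were seen.

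Alternatives were other scalings, tools and filters, only the groups compared, a replicate block and each library left out. GC and length offsets and an 18S ribosomal RNA term were added after seeing the data. Same-numbered libraries within a context did not deviate together (r = -0.166 to 0.229, median 0.0499, over 10 pairs), so the numbers were not taken to pair samples.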

Additional observations from a re-analysis of the deposited data

Results flagged for a closer look

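In 90 groups of 4 libraries of the named genes, 3 had a library far from the others by Dixon's criterion, which chance alone gives in about 1 in 20 groups. Mrpl17 was at 33.1 CPM in germ-free zinc library 1 and at 28.6 to 29.1 CPM in the other 3. Mrps12 was at 30.1 CPM in antibiotics zinc library 1 and at 24.3 to 25.2 CPM in the other 3. Mrps33 was at 4.77 CPM in antibiotics zinc library 1 and at 6.28 to 6.54 CPM in the other 3.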

How the results depend on the processing

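Of 41 named calls, 232 of 354 values with 1 library left out kept the call, 122 lost it and 0 turned. Under other settings 383 of 492 kept it, 102 lost it and 7 turned, all 7 with library totals. These were Mrpl24 (-0.18), Mrps12 (-0.21), Mrps15 (-0.12), Mrps26 (-0.13) and Mrps34 (-0.18) for germ-free against SPF mice on Milli-Q, and Mrpl16 (-0.077) and Mrps30 (-0.089) on zinc.

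Members called moved as follows. Zinc after antibiotics gave 3 with library totals and 1 with the 18S term. Zinc in germ-free mice gave 1 with RLE factors, 0 with totals, 1 with TMM without Defa genes, 4 with DESeq2, 9 with limma-voom and 0 with only the groups compared. The average gave 1 with totals, 10 with limma-voom and 1 with the 18S term. Antibiotics minus SPF gave 3 with DESeq2, 4 with limma-voom, 3 with no filter and 3 with only the groups compared, and germ-free minus SPF gave 1 with limma-voom. Germ-free minus antibiotics gave 6 with DESeq2, 16 with limma-voom, 4 with no filter and 1 with GC and length offsets. Germ-free against SPF on Milli-Q gave 63 with totals. Antibiotics against SPF on zinc gave 13 with totals and 40 with limma-voom. Germ-free against SPF on zinc gave 22 with totals, 1 with TMM without Defa genes, 6 with DESeq2, 6 with limma-voom, 1 with no filter, 0 with only the groups compared, 5 with GC and length offsets and 0 with the 18S term. The cause of these moves was not tested. For most of these settings, and for libraries left out, the shares of all genes called are not given here. The counts can therefore not be read as particular to the members.

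With the replicate number as a block, counts were 1 for germ-free minus antibiotics, 14 for antibiotics against SPF on zinc and 1 for germ-free against SPF on zinc. With the numbers in the description field as the block they were 1 for zinc in germ-free mice, 16 and 1 for the same zinc-water contrasts.

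With 1 library left out, counts were 13 to 32 for zinc after antibiotics, 0 to 12 in germ-free mice, 0 to 0 in SPF mice, 2 to 11 for the average, 0 to 2, 0 to 2 and 0 to 11 for antibiotics minus SPF, germ-free minus SPF and germ-free minus antibiotics, 0 to 0 and 7 to 21 for antibiotics and germ-free against SPF on Milli-Q, and 5 to 28 and 0 to 3 on zinc.

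The summed CPM of the members moved from all counts to 3431, 3058, 3622, 3903, 2678 and 2557 without Defa genes (SPF, antibiotics, germ-free, each Milli-Q then zinc). Without all mitochondrially encoded genes as well, it moved to 3532, 3170, 3737, 4084, 2717 and 2637. Mean TPM of Mrpl42, Mrpl20 and Mrpl23 was 13.99, 18.3 and 0.427 on the longest transcript and 6.94, 13.6 and 0.341 on merged exons.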
